A study of Mus musculus with 12 samples.

Results

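The genes described here encode the microtubule motors of the cell and their core partners: the kinesin heavy chains (Kif), the kinesin light chains (Klc), the chains of cytoplasmic dynein (Dync and Dynl) and the dynactin subunits (Dctn). They were taken by name from the 27179 genes of the count files, of which 25275 (93%) had a mouse symbol, and 63 protein-coding genes met the rule: 37 Kif, 4 Klc, 7 Dync, 9 Dynl and 6 Dctn genes. Of these, 57 had enough reads to be tested. Kif2b and Kif12 had no read in any library, and Dynlt1a, Dynlt1b, Dynlt1c and Dynlt1f had at most 18 reads in a library. Of the 75-base windows of these 4 genes, 65.6, 82.6, 92.7 and 82.2% also occur in other genes, each other among them. Reads that fit several genes may not have been counted, so the low counts need not mean low expression. RNA was sequenced from primary hippocampal neurons of newborn mice (C57BL/6 in the labels, with FVB named beside it in the study's methods), kept for 17 or 18 days on Transwell membranes, through whose pores neurites grow so that somas and neurites can be harvested apart. The 4 groups of 3 libraries were somas and neurites of control neurons given the solvent DMSO (Ctrl), and somas and neurites of neurons given the proteasome inhibitor MG132 at 10 uM for 7 h. The cultures carry all the cells that a dissociated hippocampus leaves, the animals behind each library were not described, and p-values therefore measure the spread between these libraries, which may be technical.

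Kinesins and dynein are ATP-driven motors that walk along microtubules. Most kinesins walk towards the plus end, which points away from the soma in axons, whereas dynein walks towards the minus end, and in dendrites, where microtubules point both ways, either kind can carry cargo outwards. Dynein needs the dynactin complex and an adaptor protein to move processively, and kinesin-1 binds many of its cargoes through its light chains. Both kinds of motor carry organelles, vesicles and RNA granules, and the study asked which motor moves heat shock protein mRNAs into dendrites under stress. The values below are levels of the mRNAs that encode the motors; protein and motor activity were not measured.

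Between 4247610 and 22166347 reads per library were assigned to genes, and 24111 to 173180 of them (0.467 to 0.842%) fell on the 63 motor genes. Levels are given as CPM, counts scaled to a common library size with TMM factors, tests are edgeR quasi-likelihood tests with Benjamini-Hochberg adjustment over the 14185 genes tested, and a gene was called at an adjusted p under 0.05. The induced chaperone gene Hspa1a, a check of the treatment, was higher after MG132 by 8.75 (log2) in somas and 9.15 in neurites. All 8 neuronal markers were detected in each group, with summed levels of 1396 to 2284 CPM in Ctrl somas and 1703 to 3873 CPM in Ctrl neurites, but markers of other cells were abundant too. The 7 astrocyte markers summed to 4598 to 5680 CPM in Ctrl somas, 20795 to 25749 CPM in Ctrl neurites, 2438 to 3158 CPM in MG132 somas and 9639 to 19714 CPM in MG132 neurites. The 6 oligodendrocyte lineage markers summed to 1340 to 5913 CPM in Ctrl somas, 4834 to 21682 CPM in Ctrl neurites, 444 to 5509 CPM in MG132 somas and 2803 to 15734 CPM in MG132 neurites. The 7 microglia markers summed to 535 to 667, 545 to 1061, 139 to 249 and 82.4 to 191 CPM in the same order, and the 6 fibroblast and vascular markers had medians over the libraries of 221, 74.3, 69.5 and 35.1 CPM for their sum. The 4 nuclear RNAs were lower in neurites, at 1716 to 3877 CPM against 5196 to 8479 CPM in somas. In bulk libraries such as these, fewer cells of a type and less RNA per cell cannot be told apart.

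Per kilobase of all exons, the most abundant motor mRNA was Kif5c in somas and Dynll2 in neurites, with and without MG132, and the order in somas depended on the length used. Kif5c, a neuronal kinesin-1 heavy chain, stood at 59.6 CPM per kb on average in Ctrl somas, followed by the dynein light chain Dynll2 at 53.1, the synaptic vesicle precursor motor Kif1a at 47.0, the dynein light chain Dynlt3 at 46.6 and Dynlrb1 at 43.5. In Ctrl neurites the order was Dynll2 at 266 CPM per kb, Kif5b at 186, Kif5c at 131, Dynlt3 at 126, the dynein light intermediate chain Dync1li2 at 118 and Kif5a at 108. Neighbours in these orders lay within the spread between libraries of each other in several places, for example Dynll2, Kif1a and Dynlt3 in Ctrl somas or Kif5c, Dynlt3 and Dync1li2 in Ctrl neurites. With the longest transcript in place of all exons as the length, Kif1b came first in somas, at 65 CPM per kb against 62.1 for Kif5c in Ctrl and 72.9 against 71.3 after MG132, and Dynll2 stayed first in neurites. The 10 most abundant genes by the 2 lengths shared 10 in both Ctrl groups, 8 in MG132 somas and 9 in MG132 neurites. By all exons, the dynein heavy chain Dync1h1 ranked 3 after MG132 among the members in somas, at 53.2 CPM per kb, against 12 in Ctrl somas, at 22 CPM per kb.

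The first question was in which fraction each motor mRNA was the more abundant in unstressed neurons. In Ctrl, 12 of the 57 tested motor genes were higher in neurites than in somas (10.2% of all tested genes were) and 3 were lower (4.65% of all). The 12 were all 3 kinesin-1 heavy chains, 2 of 4 light chains, Kif3b, Kif1c, 2 of 5 dynein-1 chains and 3 of the 5 tested dynein light chains, and none of the 6 dynactin subunits was among them. Over the 57 genes the median log2 ratio was 0.20, against -0.04 over all tested genes. When libraries were scaled by their total counts instead, the median of all genes moved to -0.70 and the split of called motor genes to 5 higher and 7 lower, while the number of motor genes above the median of all genes was 35, against 34 with TMM. Of all tested genes, 2.28% were higher and 19.3% lower with that scaling.

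Kif1c, a kinesin-3 heavy chain that carries dense core vesicles, integrins and mRNA, had the largest ratio of the 57 in Ctrl. Its level was 54.2, 46.5 and 56.3 CPM in the 3 Ctrl soma libraries and 572, 502 and 807 CPM in the 3 neurite libraries. The fractions were far apart in every pair of libraries. This was a 12-fold difference (log2 3.58 ± 0.21 SE, adjusted p = 1.85e-07). Its relatives were not called: Kif1a, which carries synaptic vesicle precursors, had a log2 ratio of 0.23 (adjusted p = 0.472) and Kif1b, which also carries mitochondria, of -0.22 (adjusted p = 0.472). Kif1c lies on mouse chromosome 11 (chr11:70700396-70731970, GRCm38.p6).

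Among the kinesin-1 heavy chains, which move most fast axonal cargo, Kif5b is found in all tissues and Kif5a and Kif5c mainly in neurons. Kif5b read 279, 211 and 276 CPM in Ctrl somas and 1322, 1159 and 1964 CPM in Ctrl neurites. The groups did not overlap, and the difference was 5.80-fold (log2 2.54 ± 0.23, adjusted p = 3.84e-06). Kif5a read 281, 133 and 150.4 CPM in somas and 1271, 338 and 656 CPM in neurites, 2.0 ± 0.46 on the log2 scale (adjusted p = 0.00856). Replicate 1 was the highest of its group for Kif5a in both fractions, and without Ctrl somas replicate 2 or 3 the call was lost (adjusted p = 0.0583 and 0.057). Kif5c read 566, 364 and 347 CPM in somas and 1279, 556 and 969 CPM in neurites. Its groups overlapped, since the highest soma library lay above the lowest neurite library, although each neurite library was above the soma library of its own number. Its log2 ratio was 1.13 ± 0.32 (adjusted p = 0.0251), called without Ctrl somas replicate 1 or Ctrl neurites replicate 2 but not without any of the other 4 libraries (adjusted p up to 0.141).

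The light chains link kinesin-1 to its cargo. Klc1, the main neuronal light chain, read 127, 75.4 and 132 CPM in Ctrl somas and 252, 136 and 341 CPM in Ctrl neurites, a log2 ratio of 1.13 ± 0.30 (adjusted p = 0.0203). Its groups did not overlap, by a narrow margin, and the call was lost without Ctrl somas replicate 1 or 2 or Ctrl neurites replicate 3 (adjusted p up to 0.156). Klc4 was far scarcer, at 4.77 to 7.50 CPM in somas and 8.20, 12.5 and 38.2 CPM in neurites (log2 1.69 ± 0.50, adjusted p = 0.0346), and its ratio was 0.70 (adjusted p = 0.397) without Ctrl neurites replicate 3. It also lost its call without any of the 3 soma libraries. Klc2 had a log2 ratio of 0.31 and Klc3, of which 28.1% of exon bases overlap another gene, of 1.36, and neither was called. Kif3b and Kif3a are the partner motor subunits of heterotrimeric kinesin-2. Kif3b read 46.5, 40.1 and 48.1 CPM in somas and 99.0, 80.3 and 106 CPM in neurites (log2 1.08 ± 0.17, adjusted p = 0.000485). Its groups were apart, whereas Kif3a (log2 -0.13 ± 0.17, adjusted p = 0.686) and the neuronal Kif3c (0.16 ± 0.24) were not called. Kif17, the homodimeric kinesin-2 that carries NMDA receptor vesicles in dendrites, was low in all groups, at a mean of 7.08 CPM in Ctrl somas and 4.52 CPM in Ctrl neurites.

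The dynein light intermediate chains tether the dynein heavy chain to its adaptors, and a dynein molecule holds either the product of Dync1li1 or that of Dync1li2. Dync1li2 read 112, 101 and 142 CPM in Ctrl somas and 597, 707 and 824 CPM in Ctrl neurites. The neurite libraries all lay well above the soma libraries, by 5.98-fold (log2 2.58 ± 0.20, adjusted p = 1.36e-06). Dync1li1, on the other hand, read 34.7, 28.1 and 30.7 CPM in somas and 23.5, 35.5 and 29.3 CPM in neurites, with a log2 ratio of -0.07 ± 0.21 (adjusted p = 0.871). The heavy chain Dync1h1, which carries the motor domain, rose from 386, 341 and 305 CPM in somas to 563, 453 and 624 CPM in neurites (log2 0.67 ± 0.19, adjusted p = 0.026), and this ratio became -0.02 with total-count scaling. It was called without Ctrl neurites replicate 2 and in none of the other 5 fits that left out a library (adjusted p up to 0.165). The intermediate chains, which bind dynactin, were not called: Dync1i2 had a log2 ratio of -0.03 and the scarcer Dync1i1 of -0.46. Dync1li2 lies at chr8:104417674-104443050 and shares 7.08% of its exon bases with the overlapping gene K230015D01Rik, so a small part of its reads may belong there.

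The light chains of dynein sit on the intermediate chains. Dynll2, an LC8 light chain that also binds many other proteins, read 156, 148 and 132 CPM in Ctrl somas and 812, 687 and 682 CPM in Ctrl neurites. It was 5.0-fold higher in neurites with no overlap (log2 2.32 ± 0.22, adjusted p = 5.45e-06), while its close relative Dynll1 had a log2 ratio of 0.26 ± 0.20 (adjusted p = 0.465). Dynlt3, a Tctex-type light chain, stood at 107 to 143 CPM in somas and 279 to 349 CPM in neurites (log2 1.43 ± 0.20, adjusted p = 0.000175). The roadblock light chain Dynlrb1 stood at 38.4 to 49.1 CPM in somas and 63.8 to 88.9 CPM in neurites (log2 0.83 ± 0.18, adjusted p = 0.00534). The other roadblock gene, Dynlrb2, went the opposite way, from 13.2 to 19.1 CPM in somas to 3.36 to 8.28 CPM in neurites (log2 -1.41 ± 0.45, adjusted p = 0.0463, kept without Ctrl neurites replicate 2 and lost in the other 5 fits). The other lower genes were Kif9 (log2 -1.16 ± 0.26, adjusted p = 0.00682) and the dynein-2 heavy chain Dync2h1 (-0.80 ± 0.24, adjusted p = 0.0363, kept only without Ctrl neurites replicate 1). All 3 work in cilia and flagella or in transport within them, and they are taken up with the other cilium genes further on. Without Ctrl somas replicate 2, the number of motor genes higher in neurites dropped from 12 to 7, and without any of the 3 soma libraries or Ctrl neurites replicate 3 the number lower dropped from 3 to 1. Under the replicate block, which fits same-numbered libraries together, the counts were 14 and 3 (13.7% and 9.28% of all tested genes), with Kif13a (log2 0.60, adjusted p = 0.105, 0.0244 with the block) and the mitotic kinesin Kif4 (1.34, adjusted p = 0.272, 0.0427 with the block) added. Of the 7 astrocyte markers 4 were called higher in Ctrl neurites, among them Gfap by 3.18 and S100b by 2.48 (log2), and Gja1 was called lower (-1.08, adjusted p = 0.00512), with 3 of the 7 ratios negative. All 4 tested fibroblast and vascular markers were called lower in Ctrl neurites. The part of glial RNA in the neurite ratios of the motor genes was not tested.

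**Figure D1:**
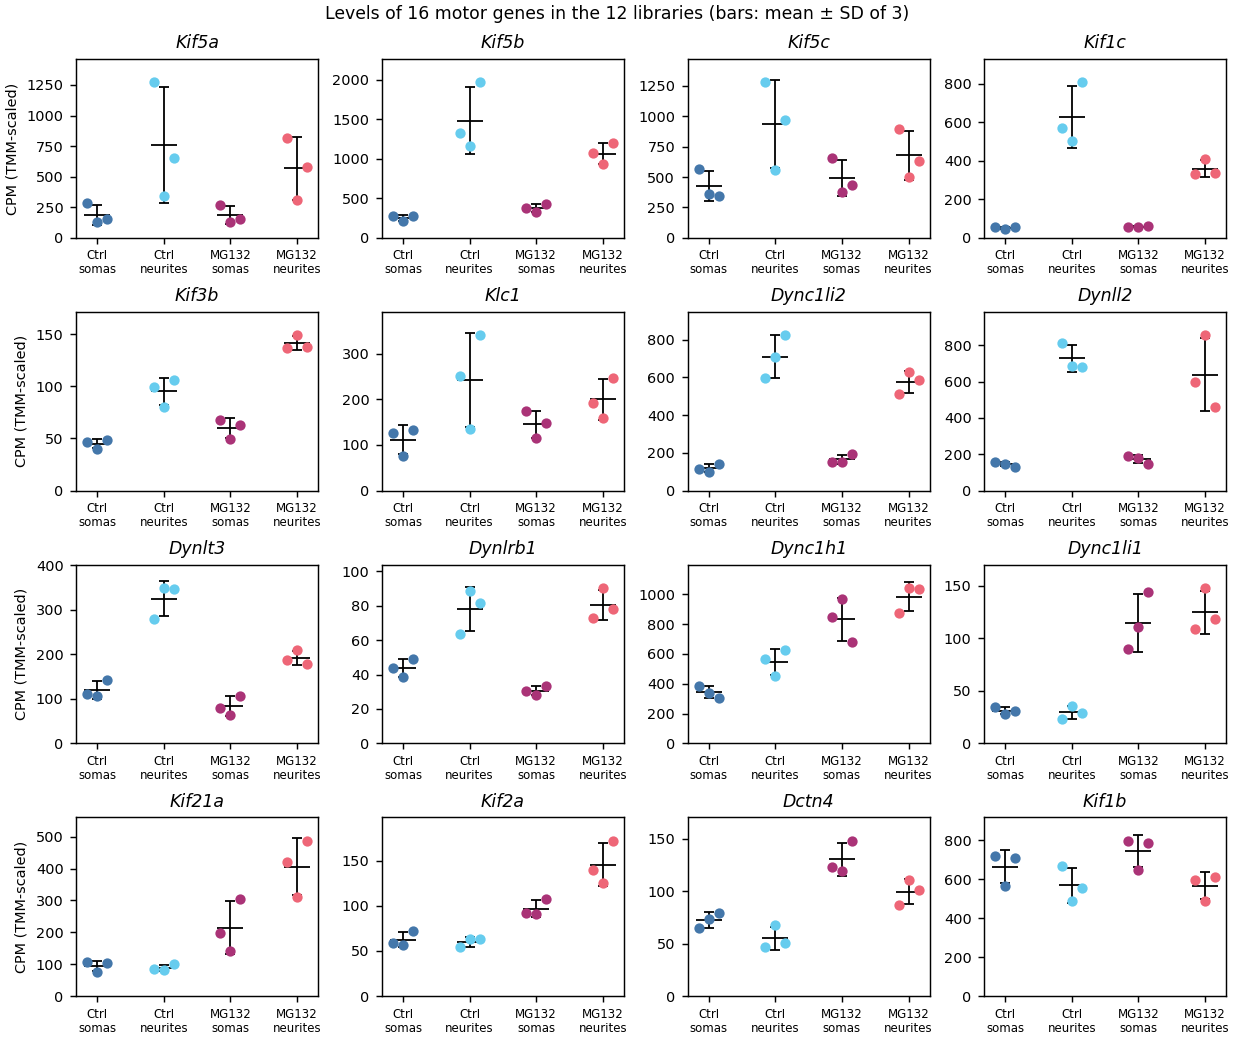
Levels of 16 motor mRNAs in the 4 groups, in TMM-scaled CPM, with a point for each of the 3 libraries and a bar for the mean ± SD. Kif1c, Kif5b, Dync1li2 and Dynll2 rise from somas to neurites in Ctrl and in MG132, and Dync1li1, Dync1h1 and Kif21a rise from Ctrl to MG132 in both fractions.

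After MG132 the same question was asked of the treated neurons, whose 6 libraries are other ones than the Ctrl libraries. Here 12 of 57 motor genes were higher in neurites (11.4% of all tested genes were) and 2 were lower (6.35% of all). Of the 12 called higher in Ctrl, 8 were also among the 12 called higher after MG132: Kif1c, Dync1li2, Dynll2, Kif5a, Kif5b, Dynlrb1, Kif3b and Dynlt3. The overlap over all tested genes is not given, and same-numbered libraries of the 2 treatments deviated together. With total-count scaling the split was 3 higher and 13 lower, against a median of all genes that moved from -0.08 to -0.86, and 42 motor genes lay above that median, against 43 with TMM. Of all tested genes, 2.11% were higher and 30.6% lower with that scaling. The replicate block raised the number lower from 2 to 6 and the number higher to 14, against 11.7% and 15.1% of all tested genes. The genes it added to those lower were Dync1i1 (log2 -1.30, adjusted p = 0.0826, 0.0107 with the block), Dync2h1 (-0.59, 0.0139 with the block), Kif1b (-0.40, 0.0232 with the block) and Kif6.

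Kif1c again had the largest called ratio, with 54.8, 56.9 and 59.0 CPM in MG132 somas and 329, 408 and 337 CPM in MG132 neurites (log2 2.65 ± 0.20, adjusted p = 1.83e-06). The soma libraries differed little from each other, and none came near a neurite library. Dync1li2 read 149, 152 and 194 CPM in somas and 510.1, 628 and 587 CPM in neurites (log2 1.80 ± 0.19, adjusted p = 2.01e-05). Dynll2 read 189, 178 and 147 CPM in somas and 599, 855 and 459 CPM in neurites (log2 1.90 ± 0.22, adjusted p = 3.04e-05). In both, every neurite library exceeded every soma library. Kif5b read 370.2, 326 and 431 CPM in somas and 1066, 929 and 1195 CPM in neurites (log2 1.5 ± 0.22, adjusted p = 0.000249), and Kif5a had a log2 ratio of 1.61 ± 0.46 (adjusted p = 0.0242), called only without MG132 somas replicate 1 or MG132 neurites replicate 2 among the fits that left out a library (adjusted p up to 0.0985). Dynlrb1 (log2 1.40), Kif3b (1.24) and Dynlt3 (1.20) kept their calls in every such fit.

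The 4 genes called higher in neurites after MG132 and not in Ctrl were Kif21a (log2 0.92, adjusted p = 0.021), Kif16b (0.97, adjusted p = 0.0229), Kif2a (0.58, adjusted p = 0.0274) and Dync1i2 (0.60, adjusted p = 0.0442). Kif16b moves early endosomes, Kif21a holds back microtubule growth, and Kif2a, a kinesin-13, takes microtubules apart at their ends. Kif2a and Dync1i2 turned to -0.25 and -0.18 with total-count scaling, and all 4 lost their calls in 2 to 4 of the 6 fits that left out a library, MG132 somas replicate 1 among them for each (adjusted p up to 0.0764 for Kif16b without that library, 0.0831 for Kif21a and 0.0882 for Kif2a without MG132 somas replicate 2, and 0.169 for Dync1i2 without MG132 neurites replicate 2). The calls of Kif21a and Kif2a were also lost without MG132 neurites replicate 1 or 3, that of Kif16b without MG132 neurites replicate 2, and that of Dync1i2 without MG132 somas replicate 2 or MG132 neurites replicate 3. Kif5c (0.47 ± 0.31), Klc1 (0.45 ± 0.30), Klc4 (1.04) and Dync1h1 (0.24 ± 0.19) missed the threshold after MG132. With the replicate block Kif5c and Klc1 passed it (adjusted p = 0.02 and 0.0403). Whether any of these genes differed between the treatments in its ratio is the interaction test described below.

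**Figure D2:**
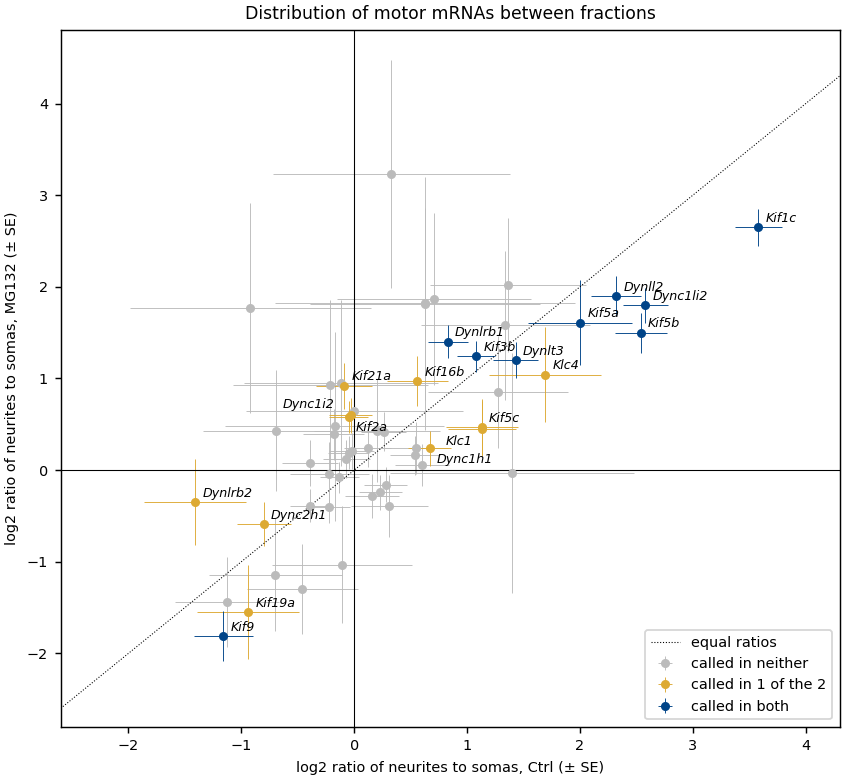
Log2 ratio of neurites to somas in Ctrl (horizontal) and after MG132 (vertical) for the 57 tested motor genes, each with its SE, and a dotted line at equal ratios. Kif1c, Dync1li2, Dynll2 and Kif5b lie far to the upper right and below the line, and Kif9 lies to the lower left.

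The ratio of the levels per kilobase of related genes within a library needs no scaling factor between libraries, and it is given as a description. The ratio of Kif1c to Kif1a was 0.142, 0.143 and 0.176 in the Ctrl soma libraries and 1.17, 1.45 and 2.17 in the Ctrl neurite libraries. After MG132 it was 0.127, 0.177 and 0.196 in somas and 0.994, 1.45 and 1.21 in neurites. Thus Kif1a mRNA outnumbered Kif1c mRNA per kilobase in every soma library, and in the neurite libraries the levels were close or reversed. The ratio of Dynll2 to Dynll1 was 3.57 to 3.85 in Ctrl somas, 11.1 to 19.7 in Ctrl neurites, 4.01 to 6.25 in MG132 somas and 10.7 to 15.3 in MG132 neurites. The ratio of Kif5b to Kif5c was at most 0.893 in a soma library and at least 0.925 in a neurite library, so the fractions touched closely without overlap. For Kif3b to Kif3a the corresponding bounds were 0.412 and 0.466.

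The light intermediate chains differed in this way by fraction and by treatment. The ratio of Dync1li2 to Dync1li1 was 2.08, 2.32 and 2.98 in Ctrl somas and 16.3, 12.8 and 18.1 in Ctrl neurites. After MG132 it was 1.07, 0.884 and 0.867 in somas and 3.01, 2.73 and 3.19 in neurites. It was thus higher in neurites within each treatment and lower after MG132 within each fraction, and MG132 neurites reached about the range of Ctrl somas. Klc1 to Klc2 (5.35 to 9.27 in somas, 9.17 to 14.5 in neurites) and Dync1i2 to Dync1i1 overlapped between fractions.

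**Figure D3:**
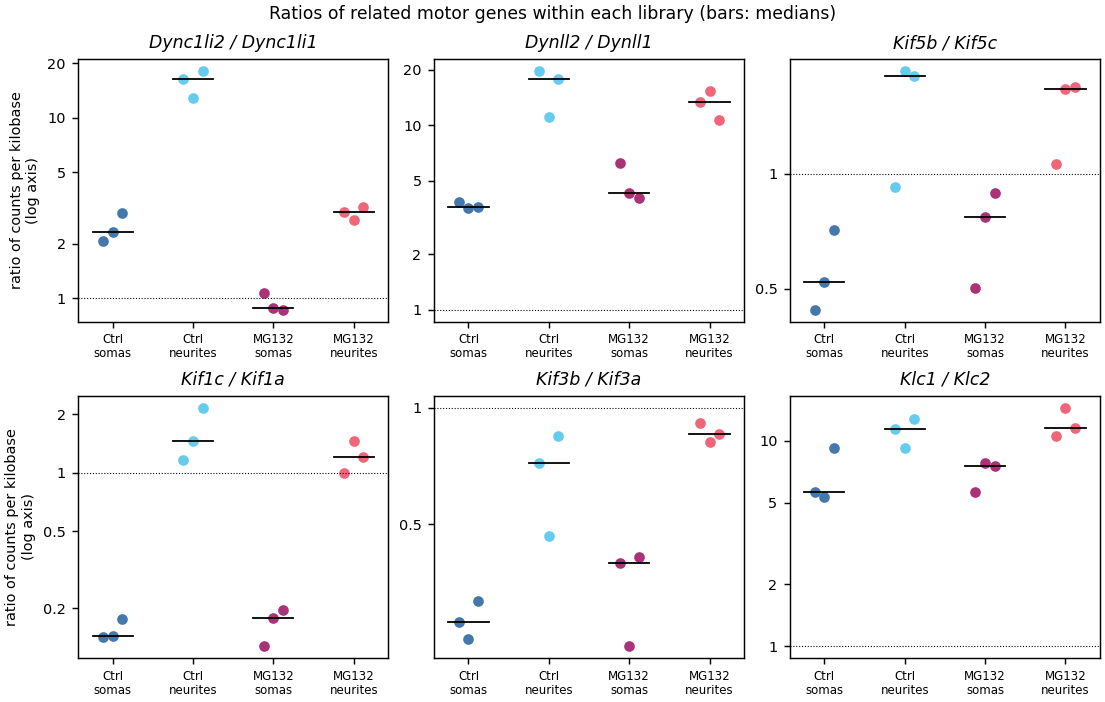
Ratio of the levels per kilobase of 6 pairs of related motor mRNAs in each library, on a log axis, with bars at the group medians and a dotted line at a ratio of 1. Dync1li2 to Dync1li1 has medians of 2.32, 16.3, 0.884 and 3.01 in the order of somas then neurites, first Ctrl and then MG132, and Kif1c to Kif1a has medians of 0.143, 1.45, 0.177 and 1.21.

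The next comparison asked how proteasome inhibition changed each motor mRNA within a fraction. In somas, 7 of 57 motor genes were higher after MG132 (15.5% of all tested genes were) and 9 were lower (11.9% of all). In neurites, 6 were higher (14.7% of all) and 4 were lower (12.3% of all). The median log2 ratio of the 57 genes was -0.09 in somas, against -0.07 over all genes, and -0.40 in neurites, against -0.16. With the replicate block the counts were 11 higher and 13 lower in somas (19% and 17.4% of all tested genes) and 7 higher and 12 lower in neurites (17.7% and 18.1%). Markers of other cells moved with the treatment too. In somas 5 of 7 astrocyte, 3 of 6 oligodendrocyte lineage, 3 of 7 microglia and all 4 tested fibroblast and vascular markers were called lower after MG132, and in neurites 3, 3, 6 and 2 were. All markers of these lists that were tested had negative ratios in both fractions, and their part in the motor gene ratios was not tested. The 8 neuronal markers had negative ratios in somas too (median log2 -0.25), as had 7 of the 8 in neurites (median -0.28), and none of them was called. Dync1li1, Dync1h1, Kif21a, Kif2a and Dctn4 were called higher in both fractions, 5 of the 7 in somas and 5 of the 6 in neurites. The soma and neurite comparisons share no library, but same-numbered libraries deviated together (correlations 0.165 to 0.248), so they are not independent. The overlap over all tested genes is not given.

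Dync1li1 had the largest rise in somas. Its soma libraries went from 34.7, 28.1 and 30.7 CPM in Ctrl to 89.4, 111 and 144 CPM after MG132, a 3.68-fold difference (log2 1.88 ± 0.21, adjusted p = 3.13e-05). Its neurite libraries went from 23.5, 35.5 and 29.3 CPM to 109, 148 and 118 CPM, a 4.22-fold difference (log2 2.08 ± 0.22, adjusted p = 1.24e-05). Every MG132 library lay above every Ctrl library, by a wide margin. Dync1h1 read 386, 341 and 305 CPM in Ctrl somas and 850.2, 968 and 681 CPM in MG132 somas (log2 1.28 ± 0.19, adjusted p = 0.000241). In neurites it went from 563, 453 and 624 CPM to 875, 1043 and 1037 CPM (log2 0.85 ± 0.19, adjusted p = 0.0038). The heavy chain groups did not overlap in either fraction. Dync1li1 lies at chr9:114688831-114723788 and Dync1h1 at chr12:110601395-110666944.

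The other dynein-1 chains moved less. Dync1li2 had a log2 ratio of 0.48 ± 0.19 in somas, not called (adjusted p = 0.0732) except with the replicate block (adjusted p = 0.00908), and was not called in neurites. Dync1i2 had a log2 ratio of -0.17 in somas and 0.45 in neurites and Dync1i1 of 0.22 and -0.62, and none of these passed (Dync1i2 in neurites had an adjusted p of 0.0258 with the block). Of the light chains, Dynlrb1 was lower in somas, from 38.4 to 49.1 CPM to 28 to 33.1 CPM (log2 -0.52 ± 0.18, adjusted p = 0.044, kept only without Ctrl somas replicate 2, with adjusted p up to 0.136 otherwise). Dynlt3 was lower in neurites, from 279, 349 and 346 CPM to 187, 209 and 178 CPM (log2 -0.76 ± 0.20, adjusted p = 0.0114), and the call was lost without Ctrl neurites replicate 3 or MG132 neurites replicate 3 (adjusted p up to 0.0825). In somas Dynlt3 had a log2 ratio of -0.52, called only with the block (adjusted p = 0.0132). Dynll2 and Dynll1 were not called in either fraction.

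The dynactin subunits of the naming rule (Dctn), none of which was called between fractions, took opposite directions after MG132. Dctn4, a subunit of the pointed end that can hold cargo, rose from 64.9, 73.4 and 79.3 CPM to 123, 119.6 and 148 CPM in somas (log2 0.85 ± 0.18, adjusted p = 0.00309) and from 46.6, 67.7 and 51.0 CPM to 86.9, 111 and 101 CPM in neurites (log2 0.85 ± 0.18, adjusted p = 0.00295). No MG132 library of Dctn4 fell to the level of a Ctrl library of its fraction. Dctn3, a subunit of the shoulder, was higher in somas (log2 0.74 ± 0.21, adjusted p = 0.0188, kept only without Ctrl somas replicate 1 or MG132 somas replicate 2, with adjusted p up to 0.0776 otherwise). Dctn5, also of the pointed end, was lower in somas, from 33.1 to 37.0 CPM to 18.2 to 24.7 CPM (log2 -0.66 ± 0.20, adjusted p = 0.024). So was the pointed end subunit Dctn6, from 23.0 to 25.1 CPM to 8.73 to 15.2 CPM (log2 -0.91 ± 0.25, adjusted p = 0.0149). Of the exon bases of Dctn6, 11.8% overlap Gm26768, whose reads may be split with it. Dctn5 lost its call without Ctrl somas replicate 2 or 3 or MG132 somas replicate 2 (adjusted p up to 0.0924) and Dctn6 without MG132 somas replicate 2 (adjusted p = 0.0573). Dctn1, the p150Glued arm that grips dynein and microtubules, and the shoulder subunit Dctn2 had log2 ratios between -0.05 and 0.28 in the 2 fractions, with no call.

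Among the kinesins of neurons, Kif21a rose most. It read 106, 75.3 and 103 CPM in Ctrl somas and 199, 140.4 and 305 CPM in MG132 somas (log2 1.19 ± 0.26, adjusted p = 0.00333). In neurites it read 85.5, 81.6 and 99.9 CPM in Ctrl and 421, 311 and 487 CPM after MG132, a 4.56-fold difference (log2 2.19 ± 0.26, adjusted p = 3.58e-05). The groups were apart in both fractions. Kif21b, its relative, was higher in somas (37.6, 35.6 and 49.4 CPM to 83.4, 77.1 and 64.1 CPM, log2 0.87 ± 0.19, adjusted p = 0.00368) and was not called in neurites. Kif2a went from 57.1 to 71.7 CPM to 90.6 to 108 CPM in somas (log2 0.63, adjusted p = 0.0129) and from 54.0, 63.4 and 63.2 CPM to 139.8, 125 and 172 CPM in neurites (log2 1.27 ± 0.17, adjusted p = 9.64e-05). The soma call of Kif2a was lost without Ctrl somas replicate 2 or MG132 somas replicate 3 (adjusted p = 0.0503 and 0.0522), and 19.2% of its exon bases overlap Dimt1, whose reads may be split with it. Kif21a lies at chr15:90933275-91050382.

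Of the kinesin-1 and kinesin-2 genes only Kif3b was called, in neurites, from 99.0, 80.3 and 106 CPM to 137, 149 and 138 CPM (log2 0.57 ± 0.17, adjusted p = 0.0214). Its call was lost without Ctrl neurites replicate 2 (adjusted p = 0.0924) or MG132 neurites replicate 2 (adjusted p = 0.0729), and its soma ratio of 0.42 passed only with the block (adjusted p = 0.0367). Kif5a, Kif5b and Kif5c had log2 ratios between -0.02 and 0.56 in somas and between -0.48 and -0.41 in neurites. With the block Kif5b passed in both fractions, up in somas (adjusted p = 0.00281) and down in neurites (adjusted p = 0.0114), Kif5c passed in neurites (adjusted p = 0.0218), Klc1 in somas (adjusted p = 0.0463) and Klc4 in neurites (adjusted p = 0.0315). Kif26a, an atypical kinesin, was scarce and had a log2 ratio of -2.53 in neurites (adjusted p = 0.114, 0.0135 with the block). Kif1c was lower in neurites after MG132, from 572, 502 and 807 CPM to 329, 408 and 337 CPM (log2 -0.81 ± 0.19, adjusted p = 0.00485), and without Ctrl neurites replicate 3, the highest library, its log2 ratio was -0.47 (adjusted p = 0.0559). In somas Kif1c lay at 46.5 to 56.3 CPM in Ctrl and 54.8 to 59.0 CPM after MG132. Kif1a had log2 ratios of 0.04 in somas and -0.44 in neurites (adjusted p = 0.0118 for the latter with the block), and Kif1b, with 0.17 in somas, was called in neither.

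**Figure D4:**
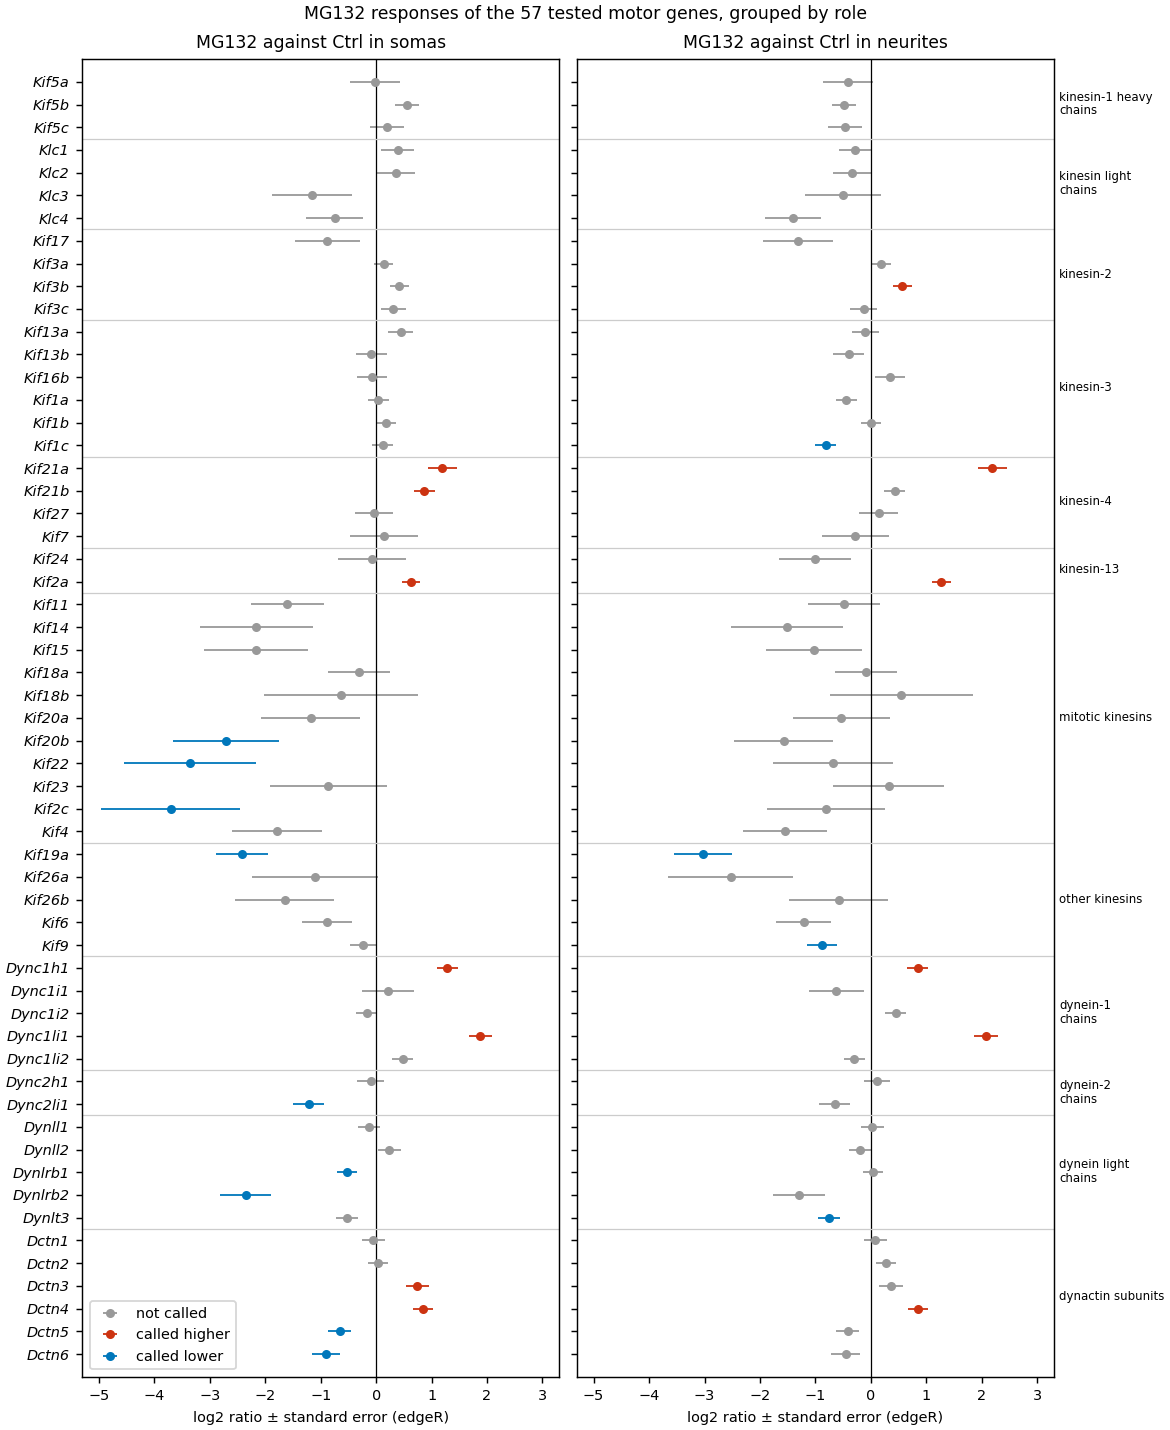
Log2 ratio of MG132 to Ctrl, with SE, of the 57 tested motor genes in somas and in neurites, ordered by role, with genes called higher in red, called lower in blue and not called in grey. Dync1li1, Dync1h1, Kif21a, Kif2a and Dctn4 are red in both fractions, Kif19a is blue in both, and all 11 mitotic kinesins lie left of 0 in somas.

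The interaction tested whether the response to MG132 differed between neurites and somas, which is the same as asking whether the neurite to soma ratio differed between treatments. No motor gene was called, and no gene of the 14185, with 7 motor genes and 1000 genes at an unadjusted p under 0.05. The smallest adjusted p among the motor genes was 0.449, for Kif5b (log2 -1.04 ± 0.30) and Kif1c (-0.93 ± 0.26). Kif21a had 1.01 ± 0.36 (adjusted p = 0.54), Dync1li2 -0.78 ± 0.27 (adjusted p = 0.51) and Kif2a 0.64 ± 0.24 (adjusted p = 0.595). With the replicate block Kif21a (adjusted p = 0.0298) and Kif5b (adjusted p = 0.0158) were called among 90 genes of all, so the result for these 2 depended on the fit. DESeq2 called none of the motor genes and 59 of the 9602 genes to which it gave an adjusted p. Without the block, a gene called in somas and not in neurites, or in Ctrl and not after MG132, was thus not shown to differ between them.

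The kinesins that build the spindle and divide the cell were low throughout and lower still after MG132 in somas. The 11 mitotic kinesins (Kif2c, Kif4, Kif11, Kif14, Kif15, Kif18a, Kif18b, Kif20a, Kif20b, Kif22 and Kif23) summed to 31.4, 96.4 and 51.2 CPM in Ctrl somas and 14.4, 27.4 and 19.3 CPM in MG132 somas. All 11 log2 ratios in somas were negative, with a median of -1.79, and 3 passed the test: Kif20b, which acts in cytokinesis, Kif22, which pushes chromosome arms, and Kif2c, which depolymerises kinetochore microtubules. Kif20b had 40, 117 and 70 reads (2.76, 13 and 7.72 CPM) in Ctrl somas and 5, 9 and 34 reads (0.462, 1.78 and 1.39 CPM) in MG132 somas (log2 -2.71 ± 0.95, adjusted p = 0.0447). Kif22 had 37, 52 and 39 reads in Ctrl and 3, 2 and 12 after MG132 (log2 -3.36 ± 1.19, adjusted p = 0.0474). Kif2c had 18, 33 and 8 reads in Ctrl and 0, 0 and 7 after MG132 (log2 -3.71 ± 1.25, adjusted p = 0.0383). In CPM the groups of all 3 were apart, but the counts were small and the calls fragile.

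Leaving out a library ended the call of Kif22 in all 6 fits (adjusted p up to 0.13), that of Kif20b in every fit but the one without Ctrl somas replicate 1 (up to 0.154), and that of Kif2c in every fit but those without Ctrl somas replicate 3 or MG132 somas replicate 3 (up to 0.135). The number of motor genes lower in somas was 5 without MG132 somas replicate 1, Ctrl somas replicate 2 or Ctrl somas replicate 3, and 3 without MG132 somas replicate 2, against 9 with all libraries. With the replicate block 6 of the 11 passed in somas, Kif11 (adjusted p = 0.00266), Kif4 (adjusted p = 0.0053) and Kif15 (adjusted p = 0.0283) being added, and 2 passed in neurites, Kif4 and Kif20b (adjusted p = 0.00254 and 0.0175). In neurites without the block none of the 11 was called, with 9 negative ratios and a median of -0.68. Of the 19 markers of dividing cells that are not kinesins, 1 was called lower after MG132 in somas (Cdk1) and 0 in neurites, against 7 and 5 with the block, and 17 of 19 had lower means in each fraction. They summed to 84.6, 269.8 and 127 CPM in Ctrl somas and 34.2, 140.2 and 47.5 CPM in MG132 somas. Replicate 2 held the highest sum of both lists in each of the 4 groups. Whether fewer dividing cells account for the lower mitotic kinesins was not tested.

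**Figure D5:**
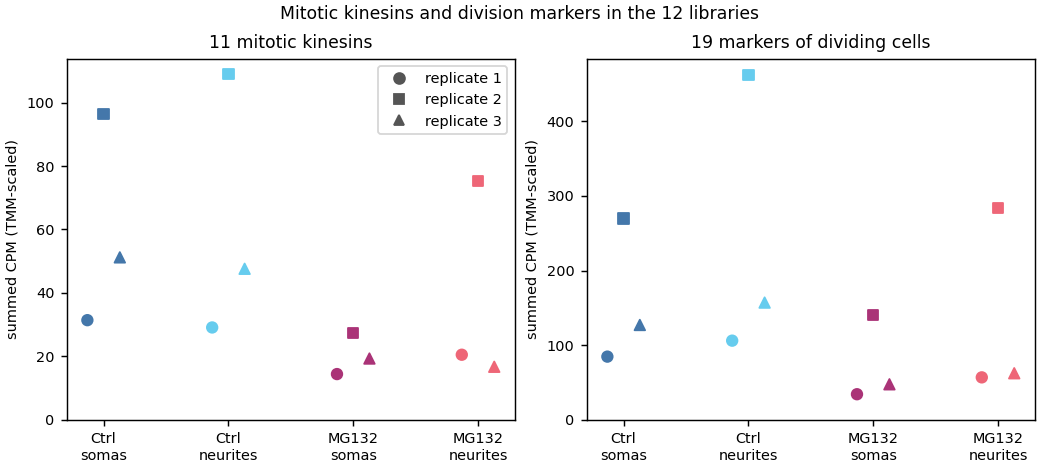
Summed level of the 11 mitotic kinesins and of 19 other markers of dividing cells in each library, in TMM-scaled CPM, with a marker shape for each replicate number. In somas the kinesins sum to 31.4 to 96.4 CPM in Ctrl and 14.4 to 27.4 CPM after MG132, and replicate 2 is the highest library of every group in both lists.

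Genes of the G2 and M phases often carry a cell cycle homology region, with the letters TTTGAA, near their start site. The promoters of the 3 called mitotic kinesins, from 250 bases before to 50 bases after the start site in RefSeq (GRCm38.p6), are shown with each match of these letters on either strand in capitals (TTCAAA is a match on the opposite strand). The start site listed for Kif2c lies inside the span of the annotated gene.
Kif20b, chr19:34922108-34922407, plus strand: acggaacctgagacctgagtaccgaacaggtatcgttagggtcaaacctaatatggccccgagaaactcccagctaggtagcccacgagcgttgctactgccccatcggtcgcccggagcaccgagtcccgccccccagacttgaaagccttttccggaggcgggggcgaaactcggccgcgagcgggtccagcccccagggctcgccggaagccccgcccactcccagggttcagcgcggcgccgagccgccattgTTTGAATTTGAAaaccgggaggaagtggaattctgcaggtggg
Kif22, chr7:127042371-127042670, minus strand: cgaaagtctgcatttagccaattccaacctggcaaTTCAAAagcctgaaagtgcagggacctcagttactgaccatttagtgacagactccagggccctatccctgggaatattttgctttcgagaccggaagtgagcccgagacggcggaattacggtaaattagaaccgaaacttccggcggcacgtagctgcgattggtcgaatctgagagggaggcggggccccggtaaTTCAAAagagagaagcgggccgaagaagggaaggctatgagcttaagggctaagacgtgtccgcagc
Kif2c, chr4:117178723-117179022, minus strand: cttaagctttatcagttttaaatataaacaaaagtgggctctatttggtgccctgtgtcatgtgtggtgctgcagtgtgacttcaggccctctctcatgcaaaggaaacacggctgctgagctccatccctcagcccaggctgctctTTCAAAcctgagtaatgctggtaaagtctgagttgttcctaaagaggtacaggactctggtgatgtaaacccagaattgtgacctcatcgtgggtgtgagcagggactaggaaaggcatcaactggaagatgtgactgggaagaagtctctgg
In Kif20b the matches begin at bases 8 and 14 after the start and follow each other directly, in Kif22 they begin at -215 and -17, and in Kif2c at -103. Such promoters were listed for 49 of the 63 motor genes, and 9 of the 10 mitotic kinesins among them (90%) held the letters, against 4 of the 39 other motor genes (10.3%) and 20.2% of the 27025 genes listed. The motif was chosen after the values had been seen, and a match of 6 letters is a description and not a site. A strict heat shock element (GAANNTTCNNGAA) was found in 0 of the 49 and in 0.662% of all promoters, and an antioxidant response element core (TGACNNNGC) in 3 of the 49 (6.12%), Dync1li1, Dctn3 and Kif17, and in 14% of all. The absence of a match says only that these letters are not in this window.

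Several of the called motor genes serve cilia, and Kif6 is described with them. They were brought together after their values were seen and are not a full list of the motors of cilia. How ciliary motors changed as a set is therefore not shown. Kif19a, a kinesin that shortens microtubules at the tips of motile cilia, read 16.6, 23.3 and 24.4 CPM in Ctrl somas and 3.42, 1.59 and 6.31 CPM in MG132 somas (log2 -2.42 ± 0.47, adjusted p = 0.00152). In neurites it read 12.2, 14.3 and 6.89 CPM in Ctrl and 0.684, 1.99 and 0.888 CPM after MG132 (log2 -3.03 ± 0.52, adjusted p = 0.000575). It was the only motor gene called lower in both fractions, with groups that were apart in each. After MG132 it was also lower in neurites than in somas (log2 -1.55, adjusted p = 0.0478), with overlapping groups and a ratio of -0.88 (adjusted p = 0.3) without MG132 somas replicate 3. That last call was also lost without MG132 somas replicate 1 or MG132 neurites replicate 1 or 3. Without MG132 somas replicate 1 or 3 or MG132 neurites replicate 3, 1 motor gene was lower in neurites after MG132, against 2 with all libraries.

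Dynlrb2, the roadblock light chain of ciliated tissues, fell in somas from 19.1, 13.2 and 16.5 CPM to 1.66, 4.56 and 3.53 CPM (log2 -2.35 ± 0.46, adjusted p = 0.00179), and in neurites its ratio of -1.29 passed only with the block (adjusted p = 0.0562, 0.0333 with the block). Dync2li1, the light intermediate chain of the dynein-2 motor that returns cargo within cilia, fell in somas from 26.4 to 30.7 CPM to 11.4 to 13.9 CPM (log2 -1.22 ± 0.28, adjusted p = 0.00446). Its heavy chain Dync2h1 stood at 55.7 to 63.4 CPM in Ctrl somas and 50.6 to 58.9 CPM in MG132 somas, a difference within the error (log2 -0.10). Kif9, a kinesin of motile flagella, was lower in neurites in Ctrl and after MG132 (log2 -1.81 ± 0.27, adjusted p = 0.000276). It was also lower after MG132 within neurites, from 15.1, 9.39 and 10.9 CPM to 7.07, 6.15 and 5.86 CPM (log2 -0.88 ± 0.27, adjusted p = 0.0252), a call kept only without Ctrl neurites replicate 2 or MG132 neurites replicate 1 (adjusted p up to 0.139 otherwise). Kif6, another kinesin of motile cilia, had log2 ratios between -1.44 and -0.89 in the 4 comparisons and was not called, though it passed after MG132 between fractions with the block (adjusted p = 0.031).

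The 7 markers of multiciliated cells took similar directions: all 7 had lower means after MG132 in somas and in neurites (3 called in each), and 6 of 7 log2 ratios between neurites and somas in Ctrl were negative. These directions were not particular to them. All 8 neuronal, 7 astrocyte, 6 oligodendrocyte lineage and 7 microglia markers also had negative ratios after MG132 in somas. Between fractions in Ctrl, 6 of 8 neuronal markers were negative and 4 of 7 astrocyte markers positive. The 7 multiciliated cell markers summed to 232 to 309 CPM in Ctrl somas, 109 to 185 CPM in Ctrl neurites, 152 to 171 CPM in MG132 somas and 60.9 to 63.2 CPM in MG132 neurites, with no marker at 0 in all libraries of a group. The part of these cells in the levels of Kif19a, Kif9, Kif6 and Dynlrb2 was not tested. In neurites, the number of motor genes called lower after MG132 was 8 without MG132 neurites replicate 2 and 2 without replicate 3 of Ctrl or of MG132 neurites, against 4 with all libraries.

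The partners of the motors that the naming rule leaves out were followed as well, 47 genes of which 45 were tested. Of these, 11 were higher and 4 lower after MG132 in somas, 9 higher and 5 lower in neurites, 8 higher and 4 lower in neurites against somas in Ctrl, and 8 and 4 after MG132. Over all tested genes the shares were 15.5% and 11.9%, 14.7% and 12.3%, 10.2% and 4.65%, and 11.4% and 6.35%. Ndel1, which with Lis1 keeps dynein bound to microtubules, changed most, by 2.01 (log2, SE 0.20, adjusted p = 9.85e-06) in somas and 2.62 (SE 0.20, adjusted p = 8.84e-07) in neurites, while its relative Nde1 was lower in somas (-0.93, adjusted p = 0.0107). The liprin Ppfia1, a scaffold that binds Kif1a, rose by 1.29 and 1.23, and Nudc, a chaperone of the dynein machinery, by 1.16 in neurites. Capza1, a capping protein of the dynactin filament, was higher in somas (1.20, adjusted p = 0.0432). Kifap3, the cargo subunit that completes kinesin-2 with Kif3a and Kif3b, fell by 0.58 in somas and 0.70 in neurites, and neither of these motor subunits was called lower. Clstn1, a kinesin-1 cargo adaptor, fell by 0.57 in somas, and the adaptors Trak1 and Spag9 fell by 0.75 and 0.66 in neurites. Leaving out a library ended the soma calls of Capza1 and Kifap3 in 4 of 6 fits and of Clstn1 in 3 (adjusted p up to 0.119, 0.176 and 0.141), the neurite call of Trak1 in 4 (up to 0.195), and those of Kifap3 (0.128) and Spag9 (0.0679) without MG132 neurites replicate 3.

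Between fractions, Trak2, the mitochondrial adaptor that favours dynein, was higher in neurites by 2.20 in Ctrl (adjusted p = 7.82e-05) and 2.0 after MG132 (adjusted p = 1.80e-04). The kinesin-1 adaptor Fez2 was higher by 1.90 and 1.19, the liprin Ppfia3 by 1.61 in Ctrl, and Nde1 by 1.47 after MG132. Madd, which links Kif1a and Kif1b to vesicles, was lower in neurites by log2 ratios of -0.89 and -1.33, and Clstn1 of -0.80 and -0.77. The dynein adaptors Nin (-0.77 in Ctrl) and Hook1 (-0.91 after MG132) were lower too. The calls of Ppfia3 (in 3 of 6 fits), Hook1 (in 5, adjusted p up to 0.164) and Clstn1 after MG132 (without MG132 somas replicate 1, adjusted p = 0.0504) were lost when a library was left out. With total-count scaling the calls of the 45 partners became 2 higher and 13 lower in Ctrl and 1 higher and 17 lower after MG132, when 19.3% and 30.6% of all tested genes were lower in neurites. Of the 3 tested kinesins with other names, none was called in any comparison.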

How the data were processed

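Per the labels and the study's methods, the authors trimmed single-end reads of polyA libraries with Trimmomatic 0.38.0, aligned them with STAR to mm10, deposited raw counts per Entrez gene from featureCounts 2.0.1 run with default parameters, which do not use strand, and compared groups with DESeq2 2.11.40.7. Levels and tests below start from these deposited counts. All 12 libraries entered a model of 4 group means in edgeR 4.0.16 (R 4.3.3, TMM factors, filterByExpr), and genes were called at an adjusted p under 0.05 with no minimum fold. Levels per kilobase use the union of exons of the GRCm38.p6 annotation. Among the members, the share of exon bases that overlap other genes reached 40.7% for Kif3c. It was 29.3% for Kif20a, 15.1% for Kif4 and 11.8% for Dctn6, and reads there may be split between genes. On simulated data for MG132 against Ctrl in somas (14185 genes), a log2 change of 1 was recovered in 6.5% of 200 changed genes and a change of 2 in 66%. In the data, 2203 genes were called higher and 1694 lower in this comparison. With fewer changed genes, the adjustment was stricter in the simulation, so these shares do not measure the recovery in the data. A gene that missed the threshold may still differ. Same-numbered libraries deviated together in the 4 comparisons (correlations 0.165 to 0.248), and counts from a fit with that number as a block are given where they changed a call. No 2 libraries held identical counts. The members, roles, pathway and marker lists were chosen with earlier results of these data known. Named were the members of the main roles whatever their values, every other member called, and in each comparison the 3 called partners that rose and the 3 that fell most; Kif6 and the members that only the block called were added after their values were seen. Alternatives were DESeq2 1.42.0, its size factors in edgeR, total counts, no count filter, only the groups compared, the replicate block, a stricter call (adjusted p under 0.01 and above 1.7-fold) and each library left out, and, added after seeing the data, total counts without mitochondrial genes and the most abundant gene, which held 12.4 to 33.4% of reads. Dynlt1a, Dynlt1b, Dynlt1c and Dynlt1f were the members that share at least 10% of their 75-base windows with other genes (65.6 to 92.7%).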

Additional observations from a re-analysis of the deposited data

Results flagged for a closer look

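For 5 motor genes, the soma library after MG132 lay above and the neurite library below its Ctrl counterpart of the same number in all 3 pairs. They were picked by this pattern in these data, which fixed the sign of the differences given below. The share of all tested genes with it, and the motor genes with the opposite pattern, are not given. The difference of the log2 ratios (neurites minus somas) was -0.78 for Dync1li2, -0.93 for Kif1c, -1.04 for Kif5b, -0.67 for Kif5c and -0.71 for Klc2. None of them passed the interaction test (adjusted p of 0.51, 0.449, 0.449, 0.846 and 0.849), and with the replicate block Kif5b did (adjusted p = 0.0158).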

How the results depend on the processing

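The counts of motor genes called moved with the scaling of libraries, the replicate block, the threshold and the libraries left out. Scaled by total counts, 3 genes were higher and 5 lower after MG132 in somas, 3 were higher in neurites, 5 were higher and 7 lower in neurites than in somas in Ctrl, and 3 were higher and 13 lower after MG132. Of all tested genes, 7.55% were then higher and 7.32% lower after MG132 in somas, and 6.61% higher in neurites. Between fractions, 2.28% of all were higher and 19.3% lower in Ctrl, and 2.11% and 30.6% after MG132. Leaving the mitochondrial genes and the most abundant gene out of those totals gave 7 higher and 10 lower in Ctrl and 7 higher and 10 lower after MG132. The shares of all tested genes were then 5.02% higher and 20% lower in Ctrl, and 6.04% and 22% after MG132. Under total counts the log2 ratios between fractions of Kif2a (-0.25) and Dync1i2 (-0.18) after MG132 changed sign. That of Dync1h1 in Ctrl went to about 0 (-0.02, adjusted p = 0.962 in the edgeR test). All 3 stayed above the medians of all genes under that scaling, -0.86 after MG132 and -0.70 in Ctrl. With the replicate block 11 genes were higher in somas after MG132, 12 lower in neurites and 6 lower in neurites than in somas after MG132. The block also called 1 gene higher (Kif21a, adjusted p = 0.0298) and 1 lower (Kif5b, adjusted p = 0.0158) in the interaction, for which a same-numbered correlation fell to 0.0972 between Ctrl neurites and MG132 somas, and 90 genes of all. DESeq2 gave 7 lower in neurites after MG132 and 4 lower in neurites than in somas after MG132, and a fit of only the groups compared gave 1 for the latter. With the stricter call 3 genes were lower in somas and 2 in neurites after MG132, 1 was lower in neurites than in somas in Ctrl, and 7 were higher and 1 lower after MG132. Leaving out each library gave 5 to 8 higher and 3 to 7 lower in somas, 5 to 7 higher and 2 to 8 lower in neurites, 7 to 12 higher and 1 to 2 lower between fractions in Ctrl, 8 to 11 higher and 1 to 2 lower after MG132, and 0 to 0 in the interaction. For DESeq2, the fit of only the groups compared, the stricter call and the left-out libraries, the shares of all genes are not given here. The causes were not tested. Several mitotic kinesins rested on few reads in MG132 somas (0 to 7 for Kif2c).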
